A study of Mus musculus with 14 samples.

Results

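The interleukin-6 (IL-6) family was examined through 10 genes in the bone marrow transcriptomes of an IL-1β experiment: the 5 ligands Il6, Lif, Osm, Il11 and Clcf1, and the 5 receptor genes Il6st, Il6ra, Lifr, Osmr and Il11ra1. They were chosen by name, and each was found among the 55487 genes that were counted. Expression was measured in 14 libraries. Of these, 10 came from sorted cells of mice that had been lethally irradiated and transplanted with marrow carrying Mx1Cre and 1 mutant Jak2 allele (Jak2 VF/+, Jak2V617F induced with pI-pC), so that PBS and IL-1β groups alike carried the mutation. The recipients then received PBS or IL-1β (0.5 µg per dose, 3 doses per week for 16 weeks). LSK cells (Lin-Sca1+c-kit+, enriched for stem cells) and LK cells (Lin-c-kit+, enriched for myeloid progenitors) were each sequenced in 3 PBS and 2 IL-1β libraries. The other 4 libraries were bone marrow cultures of wild-type C57BL/6 mice labelled as mesenchymal stromal cells (MSC), grown for 21 days and exposed for 72 h to PBS (2 libraries) or IL-1β at 5 ng/ml (2 libraries). The sources used here do not say that each library was a separate mouse or culture, so p-values measure the spread between libraries.

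IL-6 family cytokines are secreted factors that signal through receptor complexes sharing gp130, the protein encoded by Il6st. IL-6 and IL-11 first bind their own non-signalling receptors (Il6ra and Il11ra1). LIF and oncostatin M use gp130 paired with a related signalling chain such as LIFR or OSMR. Cardiotrophin-like cytokine (Clcf1) also signals through gp130 and LIFR. Engaged receptors activate JAK kinases, among them JAK2, and these phosphorylate STAT3. In bone marrow the family acts on stem cells, myelopoiesis, megakaryocytes and stroma.

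The libraries held 4393233 to 30871055 counted read pairs, and in LSK and LK cells each IL-1β library was shallower than every PBS library, so depth and treatment cannot be told apart there. LSK PBS replicate 2 stood apart: 2641 and 2784 genes differed over 2-fold between it and the other PBS libraries, against 514 between those. Stem and progenitor markers summed to 645 to 1024 TPM (counts scaled for gene length and then to a common total) in LSK PBS libraries and to 112 to 252 TPM in LK PBS libraries, with Ly6a, which encodes Sca1, at 89.6 to 103 TPM in LSK and 0.73 to 2.09 TPM in LK. The MSC label was not borne out as the main content of the cultures. The 14 macrophage markers summed to 32645 and 43157 TPM with PBS and to 75373 and 75773 TPM with IL-1β, whereas the 14 mesenchymal markers summed to 562 and 1233 TPM and to 1526 and 1651 TPM. Collagen genes, Cxcl12, Postn, Dcn and Prrx1 were present in every culture. Lepr was at 0 in both PBS cultures and Lum in 1 of them. Pdgfrb was at 22.1 to 43.0 TPM in the cultures, but also at 28.3 to 58.7 TPM in the LSK PBS libraries. The samples are called MSC cultures below as their name only. In bulk RNA, fewer cells of a type and less RNA per cell cannot be told apart.

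The sequences just before the start sites of Il6, the member with the largest measured change, and of Il6st, which encodes the shared receptor chain, are shown for reference (RefSeq, GRCm38.p6, 250 bases, 5′ to 3′). The Il6 start lies on the plus strand at the 5′ end of the gene (chr5:30012864-30013113), and so does that of Il6st (chr13:112463820-112464069). Capitals mark exact matches on either strand to 4 patterns: GGG and CC with any 5 bases between them (NF-κB), TTCNNNGAA (STAT), TTGCNNAA (C/EBP) or TGANTCA (AP-1).
Il6: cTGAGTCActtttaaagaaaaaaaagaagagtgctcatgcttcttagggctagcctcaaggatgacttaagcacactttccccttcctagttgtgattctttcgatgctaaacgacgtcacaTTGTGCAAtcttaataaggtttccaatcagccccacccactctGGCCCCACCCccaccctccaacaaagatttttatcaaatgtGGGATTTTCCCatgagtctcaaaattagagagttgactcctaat
Il6st: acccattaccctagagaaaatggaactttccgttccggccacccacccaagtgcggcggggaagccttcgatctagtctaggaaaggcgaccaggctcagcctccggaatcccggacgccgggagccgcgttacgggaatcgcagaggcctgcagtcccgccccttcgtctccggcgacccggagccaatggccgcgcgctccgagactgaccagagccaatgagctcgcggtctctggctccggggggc
The Il6 window held 3 NF-κB matches, of which 2 overlapped 43 and 44 bases before the start, together with 1 C/EBP and 1 AP-1 match. The Il6st window held none of the 4 motifs. Promoter sequences matched 8 of the 10 members (none for Osm and Clcf1), with 11 start sites in all. NF-κB letters occurred before at least 1 start of 6 of these 8 genes, AP-1 letters of 3, C/EBP letters of Il6 alone and STAT letters of none. Of 32851 mouse promoter windows of the same length, 45.8% held the NF-κB letters, 9.56% the C/EBP letters, 7.02% the STAT letters and 6.75% the AP-1 letters. A match describes the sequence and is not evidence of a bound site.

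Per gene length, the highest mean with PBS was that of a receptor gene in LSK cells and MSC cultures and of the ligand Osm in LK cells. In LSK cells with PBS, Il11ra1 had the highest mean at 74.4 TPM (n = 3), and its range did not overlap the next, Il6st at 20.4 TPM. Il6st, Il6ra (18.3 TPM) and Osm (12.2 TPM) followed in that order with overlapping ranges between neighbours. Clcf1 stood at 7.10 TPM, and Lifr, Lif, Il6, Il11 and Osmr were each below 1 TPM on average. In LK cells with PBS Osm was at 23.7 TPM, with Il11ra1 at 18.5 TPM overlapping it, followed by Il6ra at 8.45 TPM and Il6st at 7.35 TPM. In MSC cultures with PBS the order was Il11ra1 (99.9 TPM), Il6st (31.5 TPM), Il6ra (16.6 TPM), Clcf1 (12.2 TPM) and Osm (9.98 TPM), and Il6 was last at 0.372 TPM. With IL-1β, Il6 rose from the last to the second place in these cultures at 36.1 TPM, overlapping Il6st at 32.6 TPM.

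Of the 10 members, 8 had their highest group mean in an MSC culture group, and Osm and Il11 had it in LK cells with PBS. Osmr, Lifr, Lif and Il6st were higher in every culture than in every sorted library on the CPM scale, whose factors were set separately for cultures and sorted cells. Osmr had 123 to 924 counts in each culture and 0 or 1 count in each of the 10 sorted libraries, which is at or below the floor of 3 counts. Lifr was at 15.8 to 38.3 CPM (counts per library size, with the size adjusted by TMM factors) in the cultures and at 0 to 5.45 CPM in sorted cells, and Lif was at 3.50 to 16.1 CPM and at 0 to 0.932 CPM. Il6st was at 110 to 129 CPM in the cultures and at 8.77 to 86.5 CPM in sorted cells. On the TPM scale Il6st overlapped, at 28.5 to 34.8 TPM in the cultures and up to 30.9 TPM in the LSK PBS libraries. The cultures differed from the sorted cells in genotype, in growth outside the animal and in IL-1β exposure, and the part of each cannot be told apart.

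**Figure D1:**
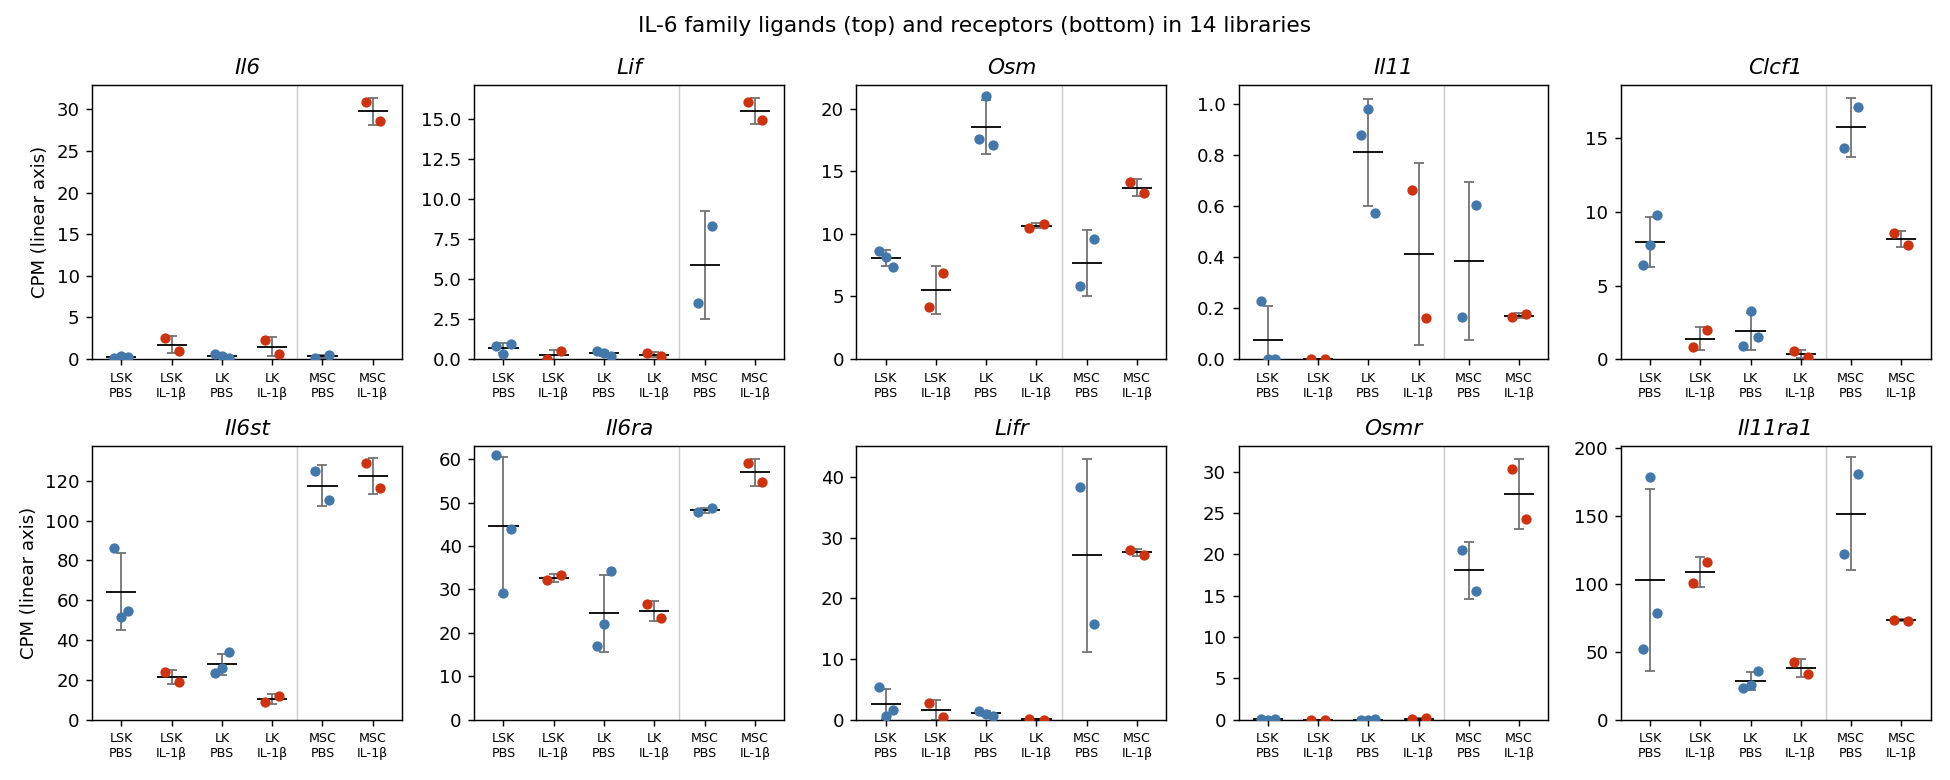
CPM of each member (linear axis, a separate scale per panel) in the 6 groups, with a point for each library, blue for PBS and red for IL-1β, a black line at the group mean and grey bars of 1 SD, cut at 0. Il6 reaches 28.6 and 30.9 CPM in the MSC cultures with IL-1β and stays below 3 CPM in every other library, while Il6st is lower in the IL-1β than in the PBS libraries of LSK and LK cells.

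In the MSC cultures, Il6 rose and Clcf1 and Il11ra1 fell with IL-1β. Calls required an adjusted p below 0.05 (edgeR quasi-likelihood test, Benjamini-Hochberg over all genes) together with a change of more than 0.5 on the log2 scale in either direction. By this rule 3 of the 9 members tested were called, 1 higher and 2 lower, beside 11.4% of all 13239 genes (7.14% higher and 4.31% lower). Il11, at 1 to 8 counts per library, was not tested. The median log2 fold change of the 9 was 0.24, and that of all genes 0.0044.

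Il6, the namesake ligand of acute inflammation, was at 0.167 and 0.452 CPM (1 and 6 counts) in the PBS cultures. It was at 30.9 and 28.6 CPM (942 and 324 counts) in the IL-1β cultures, through which it passed the filter on low counts. The groups were far apart, and the log2 fold change was 6.34 (SE 0.30, adjusted p = 0.00091 by edgeR). It was called under each of the other settings and with each library left out, where it ranged from 6.04 to 7.43.

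Clcf1 was at 14.3 and 17.2 CPM with PBS and at 8.56 and 7.77 CPM with IL-1β, a fall without overlap (log2 fold change -0.95, SE 0.18, adjusted p = 0.0300 by edgeR). Of its exon bases, 8.17% lie in an overlapping gene on the same strand, AC109138.7, and read pairs in that stretch are uncertain. Il11ra1, the specific receptor of IL-11, was at 122 and 181 CPM with PBS and at 73.7 and 72.8 CPM with IL-1β (log2 fold change -1.05, SE 0.19, adjusted p = 0.0269 by edgeR). Its near-identical copies Il11ra2 and Gm13305 held 0 to 3 counts in each library, and reads shared between copies could be lost. Both calls were lost without either IL-1β culture. Without IL-1β replicate 1 or 2 the adjusted p was 0.331 or 0.329 for Clcf1 and 0.301 or 0.262 for Il11ra1, with log2 fold changes between -1.05 and -0.89, and the calls among all genes fell from 1515 to 38 and 82.

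Lif, Osm and Osmr were each higher in both IL-1β cultures than in both PBS cultures without passing the test. Lif, a ligand of the LIFR and gp130 pair, was at 3.50 and 8.28 CPM with PBS and at 16.1 and 14.9 CPM with IL-1β (log2 fold change 1.32, SE 0.36, adjusted p = 0.0708 by edgeR), and it was called by DESeq2 (adjusted p = 0.0226) and by limma-voom (adjusted p = 0.0446), which called 1715 and 1873 of all genes. Osm, the oncostatin M gene, was at 5.84 and 9.56 CPM and at 14.2 and 13.2 CPM (log2 fold change 0.79, SE 0.26, adjusted p = 0.103 by edgeR). Its receptor chain Osmr was at 20.5 and 15.6 CPM and at 30.3 and 24.3 CPM (log2 fold change 0.62, SE 0.19, adjusted p = 0.0964 by edgeR). Without PBS replicate 2, Osm, Lif, Osmr and Lifr were called higher, and without PBS replicate 3, Osm and Lif were. The calls among all genes rose as well, from 1515 to 3819 and 2794. These fits have a single PBS culture, and their spread comes from the 2 IL-1β cultures alone. Without PBS replicate 3 Lifr turned to -0.47 on the log2 scale (adjusted p = 0.0164 by edgeR).

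The remaining receptor genes had the smallest fold changes of the 9. Il6st was at 125 and 110 CPM with PBS and 129 and 116 CPM with IL-1β, with overlapping groups and a log2 fold change of 0.06 (SE 0.12). Il6ra was at 47.9 and 48.7 CPM and at 59.1 and 54.8 CPM, a log2 fold change of 0.24 (SE 0.10, adjusted p = 0.189 by edgeR). Of these 3 receptor genes, Lifr differed most between the PBS cultures, at 38.3 and 15.8 CPM, on either side of the 28.0 and 27.2 CPM of the IL-1β cultures. Counting non-overlap alone, 5 members were higher and 2 lower in both IL-1β cultures, beside 31.3% and 29.8% of all genes. Of the 14 macrophage markers, 7 were called higher with IL-1β and 0 lower, beside 7.14% and 4.31% of all genes. Among the 7, Lyz2 had the largest fold change. Of the mesenchymal markers, 2 of the 12 tested were called higher, Dcn and Vcam1. Their part in the changes of the ligands and receptors was not tested.

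In LSK cells no member was called in either direction, whereas Il6st and Clcf1 had the lowest unadjusted p-values among the members and were lower in both IL-1β libraries. Of 8 members tested, 0 were called by edgeR, beside 0.632% of all 13132 genes. At an unadjusted p under 0.05 there were 3 (Il6, Il6st and Clcf1), beside 18.5% of all genes. DESeq2 called 2 lower (Il6st and Clcf1) and limma-voom called 0, beside 891 and 21 of all 13132 genes, against 83 by edgeR. The median log2 fold change of the 8 was -0.52, and that of all genes was -0.06. Il6 passed the filter on low counts through its IL-1β libraries, and Clcf1, Lif and Lifr passed through their PBS libraries. The counts and the median therefore depend on the filter.

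Il6st, the shared signalling chain, was at 86.5, 51.8 and 54.6 CPM in the LSK PBS libraries. It was at 24.1 and 18.9 CPM in the IL-1β libraries, below every PBS library. The log2 fold change was -1.53 (SE 0.32, adjusted p = 0.0687 by edgeR). DESeq2 called it (adjusted p = 0.00146), and so did edgeR without PBS replicate 2 (adjusted p = 0.0422) or 3 (adjusted p = 0.0458), where the calls among all genes numbered 480 and 161. Clcf1 was at 6.36, 7.75 and 9.78 CPM with PBS and at 0.828 and 1.96 CPM with IL-1β, again without overlap (log2 fold change -2.54, SE 0.69, adjusted p = 0.120 by edgeR). The IL-1β values rest on 7 and 8 counts.

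Il6 in LSK cells was at 0.151 to 0.310 CPM (2 to 5 counts) with PBS and at 2.48 and 0.98 CPM (21 and 4 counts) with IL-1β. Both IL-1β values lay above the PBS values, and the difference did not pass the test (log2 fold change 2.80, SE 1.17, adjusted p = 0.248 by edgeR). Osm was at 8.63, 8.14 and 7.40 CPM and at 4.14 and 6.86 CPM, lower without overlap (log2 fold change -0.53, SE 0.51, adjusted p = 0.604 by edgeR). Lif had 31 counts in the PBS libraries and 2 in the IL-1β libraries. Its libraries overlapped between treatments and it did not pass the test (log2 fold change -1.73, SE 1.71, adjusted p = 0.617 by edgeR). The ratio per read pair was 0.223, with a 95% exact interval from 0.0258 to 0.876 that covers counting error only. Il11 and Osmr were at the floor in every LSK library.

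The receptor genes Il6ra, Il11ra1 and Lifr overlapped between treatments in LSK cells. Il6ra was at 60.8, 29.1 and 44.0 CPM with PBS and 32.1 and 33.3 CPM with IL-1β (log2 fold change -0.40, SE 0.33). Il11ra1 was at 51.8, 179 and 78.4 CPM with PBS, the high value in PBS replicate 2, and at 101 and 116 CPM with IL-1β (log2 fold change 0.10, SE 0.46). Without PBS replicate 2, Il11ra1 stood at 0.80 on the log2 scale (adjusted p = 0.116 by edgeR). Lifr ranged from 0.620 to 5.45 CPM with PBS and was at 2.84 and 0.490 CPM with IL-1β. By non-overlap 1 member was higher and 3 were lower, beside 18.2% and 21.4% of all genes. The 1 higher was Il6, which was tested only because of its IL-1β libraries.

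In LK cells Il6st and Osm fell with IL-1β. Of 7 members tested, these 2 were called lower and 0 higher, beside 9.34% of all 12835 genes (6.77% higher and 2.57% lower). The median log2 fold change of the 7 was -0.91, and that of all genes was -0.03. This median was the value of Il11 (SE 0.83, adjusted p = 0.543 by edgeR), at 8 to 19 counts with PBS and 1 to 5 with IL-1β. Il11, Clcf1 and Lifr passed the filter on low counts through their PBS libraries, which pulls the median down, so it is not a separate result. Il6, Lif and Osmr had too few counts to be tested, and the median leaves them out.

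Il6st was at 23.5, 26.2 and 33.9 CPM in the LK PBS libraries and at 8.77 and 12.1 CPM in the IL-1β libraries. The groups were separate, with a log2 fold change of -1.42 (SE 0.24, adjusted p = 0.00919 by edgeR). The call was lost without IL-1β replicate 1 (log2 fold change -1.22, adjusted p = 0.150 by edgeR), where the calls among all genes fell from 1199 to 66, and kept in every other setting and with every other library left out. Osm, the member with the highest mean TPM in LK cells with PBS, was at 17.6, 21.0 and 17.1 CPM with PBS and at 10.5 and 10.8 CPM with IL-1β (log2 fold change -0.80, SE 0.20, adjusted p = 0.0375 by edgeR). This call was close to the threshold. It was lost with limma-voom (adjusted p = 0.0829), after thinning every library to the smallest total (adjusted p = 0.0571), in the joint fit with LSK cells (adjusted p = 0.229) and without PBS replicate 1 or 2 or IL-1β replicate 1 or 2 (adjusted p from 0.0916 to 0.293).

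Clcf1 and Lifr were also lower in both LK IL-1β libraries, at very few counts. Clcf1 was at 0.878, 3.30 and 1.51 CPM with PBS and at 0.532 and 0.161 CPM (4 and 1 counts) with IL-1β (log2 fold change -2.39, SE 0.89, adjusted p = 0.135 by edgeR). Lifr had 48 counts in the PBS libraries and 1 in the IL-1β libraries. It did not pass the test (log2 fold change -3.69, SE 1.15, adjusted p = 0.0823 by edgeR). The ratio was 0.0695, with a 95% exact interval from 0.00172 to 0.406 for counting error only. Il6 was at 0.144 to 0.559 CPM with PBS and at 2.26 and 0.643 CPM (17 and 4 counts) with IL-1β. With no filter on low counts its log2 fold change was 2.08 (SE 0.90, adjusted p = 0.140 by edgeR). Lif was at 1 to 7 counts in each LK library.

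The receptors of IL-6 and IL-11 were not lower in LK cells with IL-1β. Il6ra was at 17.1, 22.1 and 34.3 CPM with PBS and at 26.6 and 23.3 CPM with IL-1β (log2 fold change 0.03, SE 0.29). Il11ra1 was at 23.4, 25.5 and 36.0 CPM and at 42.8 and 33.6 CPM (log2 fold change 0.44, SE 0.21, adjusted p = 0.249 by edgeR). Without PBS replicate 3 it was called higher (log2 fold change 0.65, adjusted p = 0.00901 by edgeR), while the calls among all genes went from 1199 to 2409 of 12216. By non-overlap 0 of the 7 tested were higher and 4 were lower, beside 23.5% and 22.2% of all genes. Clcf1 and Lifr, with 0 to 4 counts in the IL-1β libraries, passed the filter on low counts through their PBS libraries. Of the untested members, Il6 was higher in both IL-1β libraries (17 and 4 counts), and so was Osmr at 1 count in each.

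**Figure D2:**
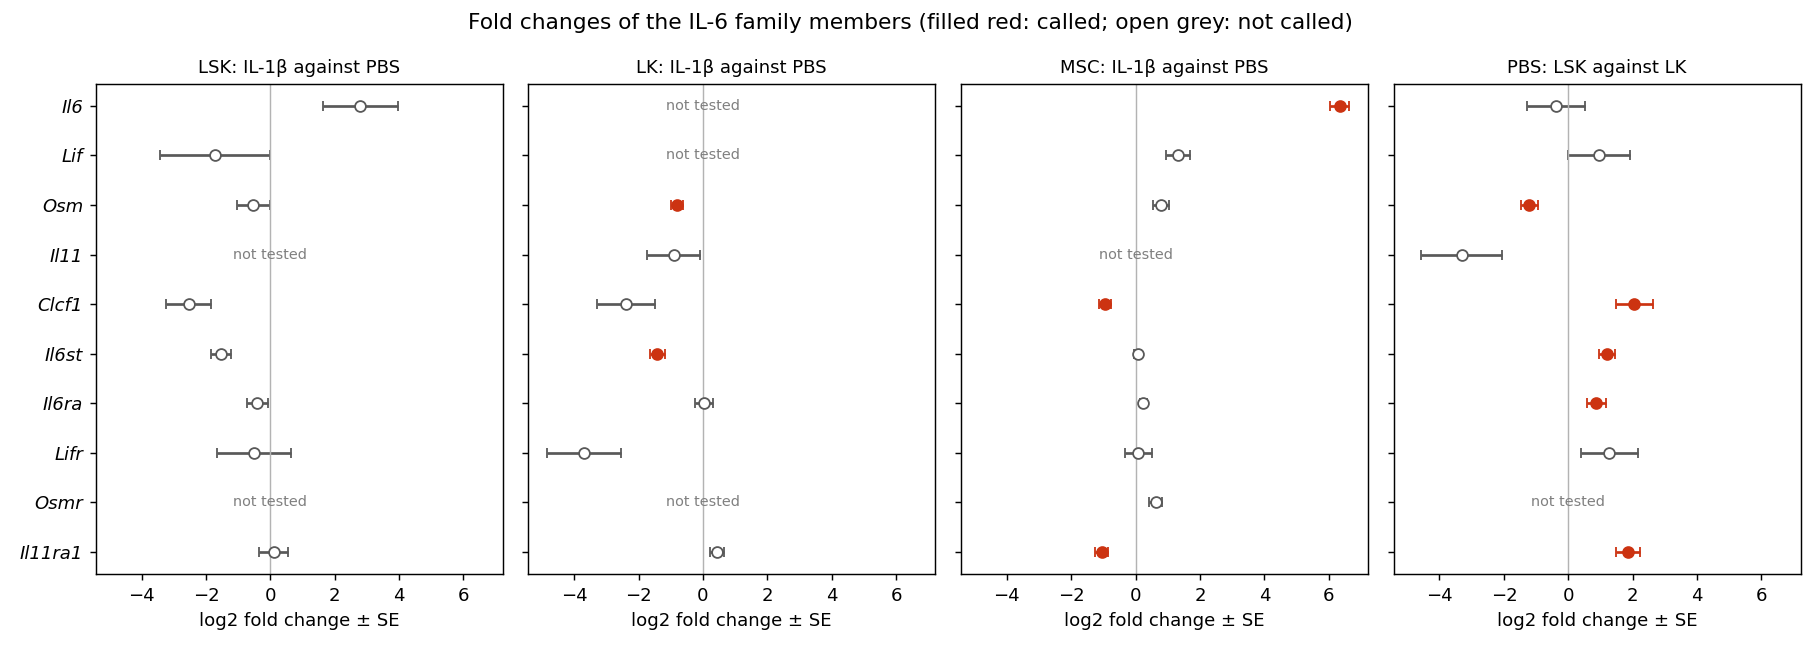
Log2 fold changes of the members (horizontal axis) with bars of 1 SE for IL-1β against PBS in LSK, LK and MSC libraries and for LSK against LK cells with PBS. Filled red points passed the rule, open grey points did not, and the points of Lif in LSK and Lifr in LK cells rest on 2 and 1 IL-1β counts. Il6 at 6.34 in MSC cultures stands beyond the other members, and Il6st lies at -1.53 and -1.42 in LSK and LK cells against 0.06 in the cultures.

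Markers of other cell types moved with IL-1β in the sorted cells. The 11 neutrophil granule genes summed to 2463 to 4604 TPM in LSK PBS libraries and to 12065 and 13615 TPM with IL-1β, and to 3934 to 13811 TPM and 28412 and 34193 TPM in LK cells. The 6 mast cell and basophil genes summed to 432 to 699 TPM and to 3186 and 6019 TPM in LK cells. Stem and progenitor markers summed to 305 and 361 TPM in the LSK IL-1β libraries, with Flt3 among those called lower. Macrophage markers summed to 443 to 609 TPM in the LSK PBS libraries and to 256 and 329 TPM with IL-1β, with 0 of 12 tested called. In LK cells their sums overlapped between treatments, at 198 to 460 TPM and at 255 and 354 TPM. The 6 lymphoid markers summed to 149 to 457 TPM in the LSK PBS libraries and to 4.05 and 7.82 TPM with IL-1β, with Dntt called lower. The 8 erythroid markers summed to 1690 to 2369 TPM in the LK PBS libraries and to 1165 and 1312 TPM with IL-1β, with Klf1, Epor and Gata1 called lower. The part of these shifts in the levels of Il6st, Osm and Clcf1 was not tested.

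LSK and LK cells themselves differed in 5 members with PBS, with Il11ra1, Il6st, Il6ra and Clcf1 higher in LSK cells and Osm higher in LK cells. In the joint fit of the 10 sorted libraries, 4 of 9 members tested were called higher and 1 lower in LSK cells. Beside these stood 31.8% of all 13839 genes (19.4% higher and 12.4% lower). The joint fit did not use the pairing of LSK and LK libraries by replicate number. Il11ra1 was 1.86 higher in LSK cells on the log2 scale (SE 0.37, adjusted p = 0.00279 by edgeR), with every LSK value above every LK value. Il6st was 1.21 higher (SE 0.25, adjusted p = 0.00325 by edgeR), also without overlap. Clcf1 was 2.05 higher (SE 0.58, adjusted p = 0.0177 by edgeR), a call lost without LK PBS replicate 1 (adjusted p = 0.0791) or 3 (adjusted p = 0.0608). Il6ra was 0.86 higher (SE 0.29, adjusted p = 0.0412 by edgeR) with overlapping groups. The Il6ra call was lost with DESeq2's size factors, after thinning, and without any 1 of 8 of the libraries in turn, with adjusted p up to 0.236 without LSK PBS replicate 1.

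Osm was 1.20 lower in LSK than in LK cells on the log2 scale (SE 0.27, adjusted p = 0.00485 by edgeR), without overlap and in every setting. Il11 had 3 counts in the LSK PBS libraries, all in replicate 1, and 38 in the LK PBS libraries. The ratio of LSK to LK was 0.0836, with a 95% exact interval from 0.0165 to 0.264 for counting error only. Il11 did not pass the test (log2 fold change -3.32, SE 1.25, adjusted p = 0.0632 by edgeR). Il6 and Lif did not differ beyond their spread (log2 fold changes -0.39, SE 0.90, and 0.97, SE 0.96).

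With IL-1β the same comparison called 0 of 9 members in edgeR, beside 4.4% of all genes. At an unadjusted p under 0.05 there were 4 members, beside 21.8% of all genes, DESeq2 called 2 (Il11ra1 and Il6st) and limma-voom called 0, beside 1337 and 182 of all genes. Il11ra1 was at 101 and 116 CPM in LSK and 42.8 and 33.6 CPM in LK cells (log2 fold change 1.5, SE 0.46, adjusted p = 0.0863 by edgeR). In the fit blocked on replicate number it was called (log2 fold change 1.51, adjusted p = 0.0294 by edgeR). Il6st was 1.06 higher in LSK cells (SE 0.33, adjusted p = 0.0894 by edgeR). Osm was 0.98 lower (SE 0.35, adjusted p = 0.134 by edgeR). The response to IL-1β was not shown to differ between the populations for any member. In the interaction test 0 of 9 were called, beside 0.0289% of all genes, with 0 at an unadjusted p under 0.05 (14.2% of all genes). DESeq2 and limma-voom also called 0, beside 2.41% and 0.00723% of all genes. The difference of responses was -0.15 for Il6st (SE 0.41), -0.19 for Clcf1 (SE 1.27) and 0.23 for Osm (SE 0.44), wide enough at this depth to leave sizeable differences undetected.

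Between the MSC cultures and the sorted cells the response was tested in a fit of all 14 libraries that was added after seeing the data. Il6 and Il6st were called, with a positive difference of the cultures from LSK cells (2 of 10 members, beside 9.27% of 15393 genes). The same 2 were called for the difference from LK cells (2 of 10, beside 2.04%). Il6st did not rise in the cultures: its log2 fold change was 0.06 there, against -1.53 in LSK and -1.42 in LK cells in the separate fits. Osm, higher in both IL-1β cultures and lower in the IL-1β libraries of both sorted populations, did not pass either test.

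**Figure D3:**
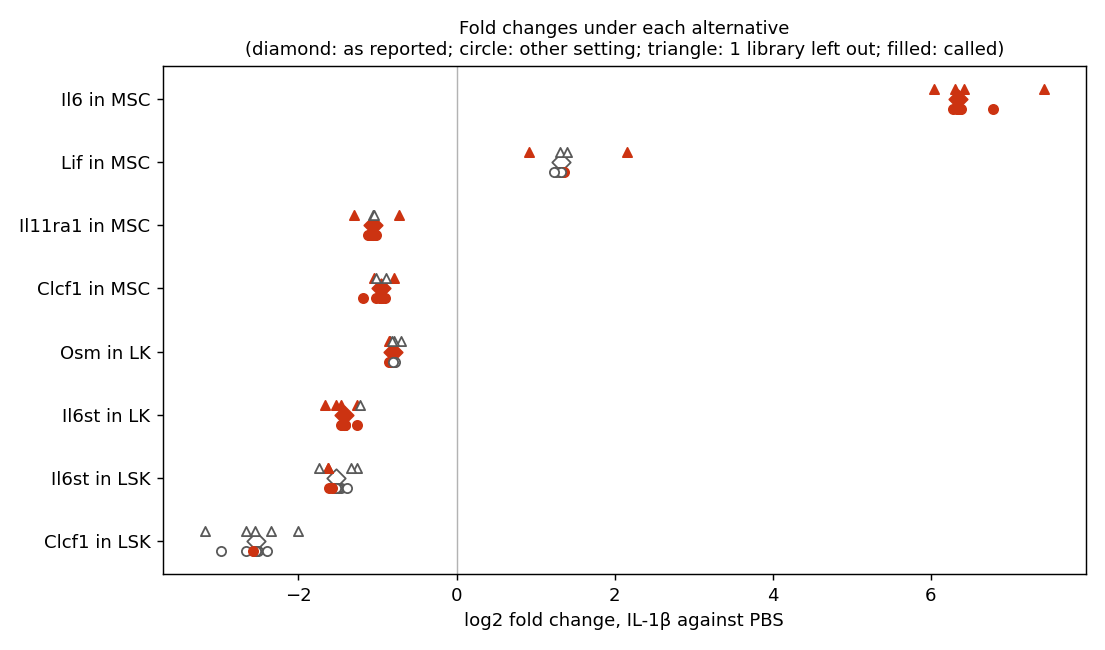
Log2 fold change of IL-1β against PBS for 8 combinations of member and population under each setting, with diamonds for the reported fit, circles for another tool, scaling or filter and triangles for 1 library left out. Filled marks passed the rule. Il6 in MSC cultures is called throughout (6.04 to 7.43), whereas Osm in LK cells keeps its size (-0.86 to -0.70) but not its call.

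Among the other genes of the pathway, the lists of transducers, inhibitors and targets were read for the signalling side. In MSC cultures 7.14% of all 13239 genes were called higher and 4.31% lower. Of 11 JAK-STAT transducers, 4 were called higher and 0 lower (median log2 fold change 0.35). Among these were the adaptor Gab1 (1.53, SE 0.18), Jak2 (1.06, SE 0.17) and Stat3 (0.75, SE 0.11). Of 11 feedback inhibitors and sheddases, 3 were called higher and 0 lower. Socs3, the suppressor that binds gp130, went from 18.3 and 15.7 CPM with PBS to 139 CPM in both IL-1β cultures (log2 fold change 3.04, SE 0.12, adjusted p = 0.000584 by edgeR). Cish (2.57, SE 0.52) and Adam17, which encodes a protease that sheds the IL-6 receptor (0.80, SE 0.15), rose as well. Of 19 STAT3 target genes tested, 10 were called higher, led by the acute phase gene Saa3 (10.02, SE 0.28), the siderophore-binding Lcn2 (6.07, SE 0.19) and Socs3, and 3 lower, the cell cycle genes Ccnd1 (-1.64, SE 0.15) and Birc5 (-1.61, SE 0.18), and Myc (-0.97, SE 0.15). Many of these genes also answer to NF-κB or C/EBP factors, so the list's name does not say which signal acted. Without IL-1β replicate 1 or 2 the calls of transducers, inhibitors and targets fell, and so did those among all genes. Without PBS replicate 2 the calls of inhibitors rose, and so did those among all genes.

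In LK cells 10 of 19 STAT3 target genes were called higher and 1 lower (median log2 fold change 1.08), beside 6.77% and 2.57% of all 12835 genes. Saa3 (6.21, SE 0.38), Lcn2 (5.65, SE 0.31) and Lrg1 (5.33, SE 0.52), the last encoding a secreted glycoprotein of granulocytes, had the largest rises, and Ccnd1 fell (-1.08, SE 0.26). The calls numbered 4 without IL-1β replicate 1 and 7 without replicate 2, where those among all genes fell to 66 and 331. In the same cells Lcn2 and Lrg1 moved together with the neutrophil granule genes given above, of which 7 of 11 were called higher, and their part was not tested. No transducer or feedback inhibitor was called by edgeR. Stat3 was at 69.5, 70.9 and 105 CPM with PBS and 165 and 124 CPM with IL-1β (log2 fold change 0.82, SE 0.21, adjusted p = 0.0558), and Socs3 at 0.878 to 2.22 CPM and 4.12 and 2.90 CPM (adjusted p = 0.217). DESeq2 called 2 of 11 transducers and 0 inhibitors, limma-voom 0 of either, and edgeR without PBS replicate 3 called 2 transducers and 1 inhibitor. These settings called 12%, 7.68% and 19.7% of all genes.

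In LSK cells 2 of 19 target genes were called higher, Lcn2 (6.71, SE 0.44) and Lrg1 (6.40, SE 0.79), and 0 lower, beside 0.632% of all 13132 genes. The calls numbered 1 by limma-voom, 5 without PBS replicate 2 and 6 by DESeq2, beside 0.16%, 3.79% and 6.78% of all genes. They fell without either IL-1β replicate, as did those among all genes. Socs3 was at 11.5, 5.66 and 11.4 CPM with PBS and at 30.8 and 21.1 CPM with IL-1β, higher without overlap and not called (log2 fold change 1.49, SE 0.41, adjusted p = 0.121 by edgeR). No transducer and no inhibitor was called by edgeR, DESeq2 called 1 of each and limma-voom 0 of either. Without PBS replicate 3 edgeR called 1 transducer, beside 1.29% of all genes.

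Jak2, the mutated gene, was at 77.5 to 101 CPM in LSK and 79.4 to 84.6 CPM in LK PBS libraries, and the counts do not tell the mutant from the wild-type allele. With IL-1β it was at 72.9 and 52.7 CPM in LSK cells (log2 fold change -0.44, SE 0.26) and at 85.4 and 80.4 CPM in LK cells (0.02, SE 0.10). Of the 12 other family ligands and receptors, few passed the filter on low counts: 6 in LSK and LK cells and 4 in MSC cultures. Ebi3, the shared subunit of IL-27 and IL-35, was called higher in LK cells, at 2.56, 3.35 and 4.60 CPM with PBS and 10.9 and 7.08 CPM with IL-1β (log2 fold change 1.36, SE 0.36, adjusted p = 0.0464 by edgeR). This call was lost with limma-voom, in the joint fit and without PBS replicate 1 or 2 or either IL-1β replicate, and without PBS replicate 3 a further gene of the list was called. In LSK cells and MSC cultures 0 of these genes were called by edgeR, while DESeq2 called 1 in each, beside 6.78% and 13% of all genes.

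**Figure D4:**
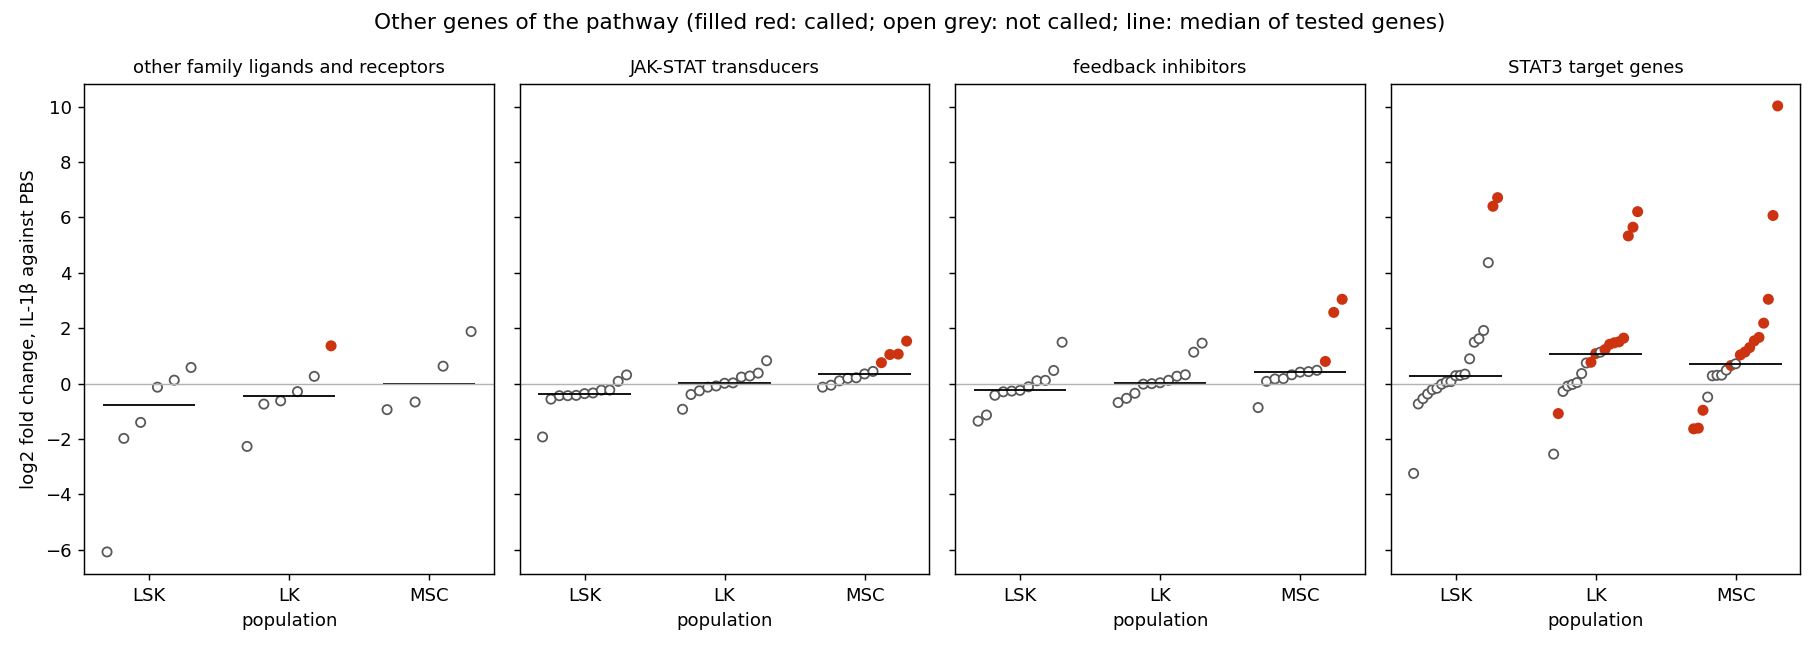
Log2 fold change of IL-1β against PBS for the tested genes of 4 lists in LSK, LK and MSC libraries, with filled red points for genes that passed the rule and a line at the median of the tested genes. The medians of the STAT3 target list are 0.28, 1.08 and 0.71, and Saa3 at 10.02 in MSC cultures is the highest point.

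Likeness to Il6 over the 14 libraries was read by Pearson correlation of log2(TPM + 1). It covered the 13226 genes with a mean log2(TPM + 1) of at least 1. The genes most like Il6 were Saa3 (r = 0.97), Acod1 (r = 0.94), Il1b (r = 0.93), Aoah (r = 0.92) and Ednrb (r = 0.90). These 5 had their highest group mean in the IL-1β cultures, with Saa3 at 2009 TPM, Il1b, which encodes the administered cytokine, at 109 TPM and Acod1 at 21.8 TPM. For Osm they were 1190002N15Rik (r = 0.91), Lpin1 (r = 0.90), Stx2 (r = 0.90), Sept8 (r = 0.89) and Slc29a1 (r = 0.89), which had their highest means in LK cells with PBS. Outside the IL-1β cultures the group means of Acod1 and Ednrb were at most 1.06 and 1.25 TPM, so they met the limit on the mean through those cultures. Genes chosen by likeness to Il6 or Osm tend to peak where these do, so the peaks are not a separate result. The points share population, treatment and depth, so the likeness describes these groups only.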

How the data were processed

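Per-gene read-pair counts, not normalized, are what the authors deposited. Reads were trimmed with fastp 0.20.0, aligned with HISAT2 2.0.1 and SAMtools 1.10 to GRCm38, and counted in reverse-stranded mode with featureCounts 2.0.2 on Ensembl release 100 genes, per the file headers and the submitters' processing notes. The methods also name GenomicAlignments. Replicates were not pooled. Symbols came from GENCODE M21 (55141 of 55487 identifiers). The members and gene lists were chosen with earlier results of these data known.

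Testing used the quasi-likelihood method of edgeR 4.0.16 under R 4.3.3, after filterByExpr and TMM normalization, within each population, with LSK and LK libraries together for their comparison and interaction. The standard error is the log2 fold change divided by the square root of F. CPM used TMM factors of the 10 sorted or of the 4 MSC libraries, and TPM used the files' gene lengths. Scripts were tested on simulated data. The alternatives were DESeq2 1.42.0, limma-voom (limma 3.58.1), upper-quartile factors or DESeq2's size factors in place of TMM, no filter, a filter of 10 reads in 2 libraries, no fold threshold, thinning, a replicate block, a joint fit and leaving out each library.

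LSK and LK libraries of the same number correlated in their deviations from the group means (r = 0.21, 0.13 and 0.47 with PBS, 0.10 with IL-1β, where both pairs share 1 value). The replicate block therefore took the numbers to pair them. The reported comparison and interaction of LSK and LK cells did not use this pairing. Unlike numbers also reached r = 0.16 (LSK PBS 2 with LK PBS 1) and 0.12 (LSK PBS 1 with LK PBS 2). Named genes were the members, Jak2, up to 3 called genes per list and direction, and the 5 genes most like Il6 and Osm. Some genes under this rule are not reported here. Gm13305, Il11ra2, AC109138.7, the marker genes and the not called Stat3, Socs3 and Ebi3 values were added after the data were seen. A further IL-1β MSC library named in a header was not analysed here. Figures were drawn with matplotlib 3.10.9.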

Additional observations from a re-analysis of the deposited data

Results flagged for a closer look

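The response to IL-1β differed between MSC cultures and sorted cells for Il6 and Il6st. In a fit of all 14 libraries chosen after seeing the data, the log2 response of Il6 in the cultures exceeded that in LSK cells by 3.57 (SE 1.03, adjusted p = 0.0453 by edgeR) and that in LK cells by 4.37 (SE 1.00, adjusted p = 0.0386). For Il6st the difference was 1.62 from LSK cells (SE 0.36, adjusted p = 0.0156 by edgeR) and 1.60 from LK cells (SE 0.37, adjusted p = 0.0386). In the separate fits Il6st hardly moved in the cultures (0.06) and was lower in LSK and LK cells (-1.53 and -1.42). For the differences from LSK and LK cells, 9.27% and 2.04% of 15393 genes were called. Osm moved in opposite directions without overlap, higher in both IL-1β cultures and lower in both IL-1β libraries of LSK and of LK cells. The difference was 1.39 against LSK (SE 0.45, adjusted p = 0.0693) and 1.73 against LK cells (SE 0.44, adjusted p = 0.0637), so it did not pass the test. Genotype, dose, length of exposure and culture differed with the population and cannot be told apart from it.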

How the results depend on the processing

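Calls of members depended on the tool and the filter, and directions mostly did not. In LSK cells with IL-1β, the members called lower went from 0 to 2 with DESeq2 and in the joint fit with LK cells, to 1 with no filter, and to 0 to 1 with a library left out. The calls among all genes rose there from 83 to 891, 1228 and 869. In LK cells the 2 called lower became 1 with limma-voom, after thinning and in the joint fit, 4 with no filter (1844 of all genes, against 1199) and 0 to 3 with a library left out (66 to 2409), while the 0 called higher became 0 to 1 with a library left out. In MSC cultures the 1 called higher became 2 with DESeq2 or limma-voom, 4 with no filter (2354 of all genes, against 1515) and 1 to 5 with a library left out (38 to 3819), and the 2 called lower became 0 to 2. Where 1 library is left in a group, it is assumed to vary like the others. For LSK against LK cells with PBS, the 4 called higher became 2 to 4 and the 1 called lower 1 to 2 with a library left out, and 2 were lower with limma-voom. With IL-1β the 0 called higher became 2 with DESeq2, 3 with no filter and 0 to 2 with a library left out. For LSK against LK cells with PBS, the calls among all genes went from 4394 to between 2741 and 4607 with a PBS library left out, and to 4725 with limma-voom. With IL-1β they went from 609 to 1337 with DESeq2 and 1410 with no filter. Without LSK PBS replicate 1 or 2, where members were called, they were 557 and 1867. In LK cells they were 986 with limma-voom, 1193 after thinning and 489 in the joint fit. The cause was not tested.

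The replicate block called 1 member lower in LSK cells (Il6st), 1 higher (Il11ra1) and, beside the other 2, Lifr lower in LK cells, and 1 higher in LSK than LK cells with IL-1β (Il11ra1). Within a population the numbers of PBS and IL-1β libraries did not pair them, and all-gene calls moved from 83 to 702 in LSK and from 1199 to 2331 in LK cells. For the interaction they moved from 4 to 24. The block changed no other member's call between LSK and LK cells. No paired analysis of the MSC treatments was possible because they share only 1 replicate number.

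Some values changed sign, and not only those near 0. Lifr in LSK cells with IL-1β was reported at -0.51, and Lif for LSK against LK cells with IL-1β at -0.56. Il6ra in LK cells was -0.0098 with upper-quartile factors and -0.0066 after thinning, Il6st in MSC cultures was -0.0025 with upper-quartile factors, and the Il6st interaction was 0.073 after thinning. With a library left out, log2 fold changes ranged as follows. Values in LSK cells with IL-1β were Lifr -2.33 to 0.62 and Il11ra1 -0.22 to 0.80. Values in LK cells with IL-1β were Il6ra -0.16 to 0.35. Values in MSC cultures with IL-1β were Il6st -0.018 to 0.17 and Lifr -0.47 to 0.82. Values for LSK against LK cells with PBS were Il6 -0.74 to 0.12. Values for LSK against LK cells with IL-1β were Il6 -0.64 to 1.39 and Lif -4.87 to 0.70. Values for the interaction were Il6st -0.32 to 0.21, Clcf1 -0.85 to 0.96 and Osm -0.15 to 0.61.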
